A study of Mus musculus with 8 samples.

Results

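The dual specificity phosphatases described here are 9 genes, *Dusp1*, *Dusp3*, *Dusp4*, *Dusp5*, *Dusp6*, *Dusp8*, *Dusp10*, *Dusp13* and *Dusp26*, out of 55401 genes in the table of normalized counts. They were taken by gene symbol, and they are part of a family of 27 phosphatase and phosphatase-like genes that was listed for comparison. They were chosen by function and by their difference in normalized counts between *mdx5cv* and WT muscles, which was known at that point, so these values and their intervals are given as a description, with no p-value, and counts of calls among them are given only beside those of all genes. Bulk RNA-seq had been made from whole tibialis anterior (TA) muscles, a fast hindlimb muscle, of male mice of the C57/Bl6 strain at 6 mo of age. The groups were 4 WT muscles and 4 *mdx5cv* muscles. The *mdx5cv* mouse is a model of Duchenne muscular dystrophy on the same background that carries a mutation in *Dmd*, the dystrophin gene. The labels name no treatment for either group. The labels do not say whether each muscle came from its own mouse, so the errors and p-values measure the spread between these samples.

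Dual specificity phosphatases remove phosphate from threonine and from tyrosine. The classical members of the family are MAP kinase phosphatases, which dock on ERK, JNK or p38 through a kinase-binding domain and inactivate the kinase by clearing both phosphorylated residues of its activation loop. Several of them are transcribed in response to the kinases that they switch off and so act as negative feedback. The atypical members are small, lack the kinase-binding domain and have a wider range of substrates. In muscle, MAP kinases take part in satellite cell activation, differentiation, inflammation and the response to contraction.

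A feature of most of the listed family is the catalytic signature. In it a histidine precedes the cysteine that attacks the phosphate and an arginine follows after 5 other residues. A search of the coding sequence for this spacing found it in 9 of the 9 genes and in 14 of the 18 other family genes, and no match was found in *Dusp27*, *Dusp28*, *Styx* and *Styxl1*. The 24 coding bases of each signature are given 5′ to 3′ on the coding strand, from GENCODE M21 on GRCm38. Capitals mark the codons of the cysteine and of the arginine. Each signature lies within a single coding exon.
Dusp1 (chr17:26506592-26506615, minus strand): catTGCcaggccggcatctccCGG
Dusp4 (chr8:34818433-34818456, plus strand): cacTGCcaggccggcatctccCGA
Dusp5 (chr19:53540951-53540974, plus strand): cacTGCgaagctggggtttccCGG
Dusp6 (chr10:99266027-99266050, plus strand): catTGCttggcaggtatcagcCGC
Dusp8 (chr7:142083333-142083356, minus strand): cacTGTctggctggcatctctCGC
Dusp10 (chr1:184074293-184074316, plus strand): cacTGCcaggccggcgtgtccCGA
Dusp3 (chr11:101974902-101974925, minus strand): catTGCcgcgagggctacagcCGC
Dusp13 (chr14:21733814-21733837, minus strand): cacTGCgctatgggggtgagtCGC
Dusp26 (chr8:31096203-31096226, plus strand): cacTGTgcggtgggagtgagcAGA

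The signatures of *Dusp1* and *Dusp4* were identical at 22 of 24 bases, as were those of *Dusp4* and *Dusp10*. The least alike pair was *Dusp1* and *Dusp13*, with 10 of 24 bases. The cysteine codon was TGC in 7 of the genes and TGT in *Dusp8* and *Dusp26*. Genes with near-identical signatures did not share a direction between the groups. *Dusp4* was higher in *mdx5cv* muscle, *Dusp10* was lower, and *Dusp1* overlapped between the groups.

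The values are normalized counts, that is, the reads of a muscle over its size factor. Whole reads recovered from them ranged from 13862559 to 14921057 in WT and from 13175524 to 14502624 in *mdx5cv* muscles. *Dmd* itself was 6954 ± 857 in WT and 3964 ± 388 in *mdx5cv* muscles (SD, n = 4), and it fell by 0.81 on the log2 scale (SE 0.12, limma adjusted p = 0.000177). Fold changes are differences in log2(normalized count + 1), and a gene was called where limma gave an adjusted p under 0.05 over the 13677 genes whose normalized counts averaged 10 or more. By this rule 40.9% of all genes tested were called, 20.9% higher and 20.1% lower in *mdx5cv* muscle, and their median log2 fold change was 0.0035. All 9 phosphatases passed the filter, *Dusp5* only through the *mdx5cv* muscles. The rule called 2 of them higher (*Dusp4* and *Dusp5*) and 4 lower (*Dusp8*, *Dusp10*, *Dusp13* and *Dusp26*), and left 3 uncalled, and nothing is read from these counts because the genes were chosen with the contrast known. With a log2 fold change of 1 or more in either direction required in addition, the counts were 2 higher and 2 lower, where 10.3% and 3.27% of all genes tested passed. The groups did not overlap for 6 of the 9 genes, against 40.1% of all genes tested. The *mdx5cv* muscles were all higher for 2 of them (20.3% of all genes tested) and all lower for 4 (19.8%).

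**Figure D1:**
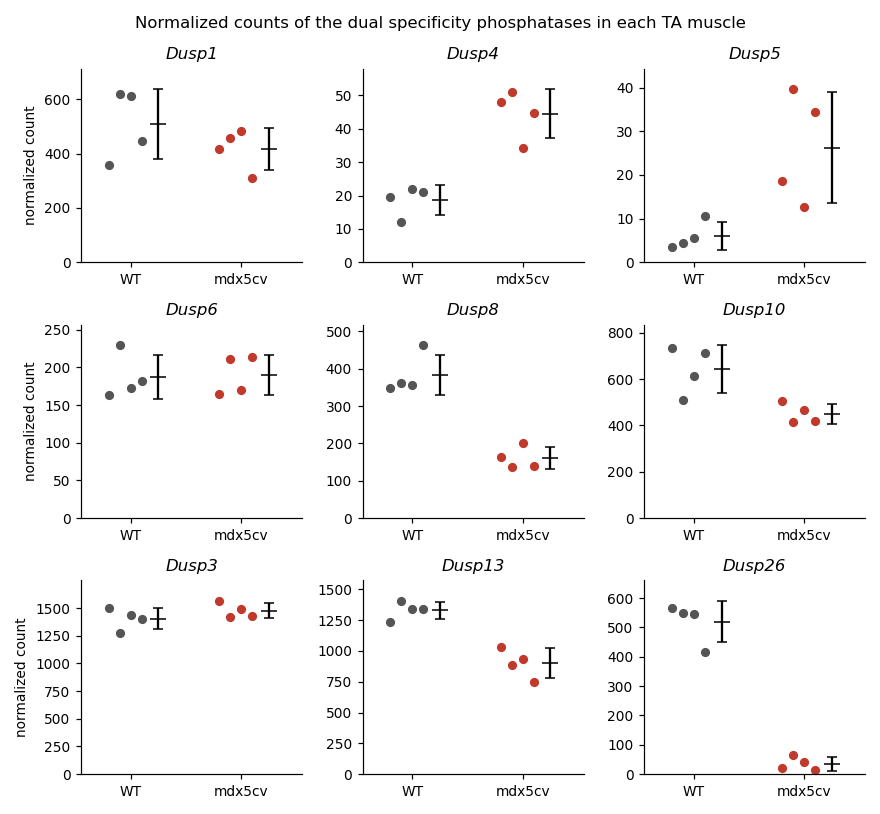
Normalized counts (vertical axes, from 0) of the 9 phosphatases in each WT (gray) and mdx5cv (red) TA muscle. Each point is 1 muscle and the bar beside the points is the mean ± SD of the 4 muscles. The mdx5cv points lie above all WT points for Dusp4 and Dusp5, below all WT points for Dusp8, Dusp10, Dusp13 and Dusp26, and among them for Dusp1, Dusp3 and Dusp6.

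Markers of several cell types differed between the groups in these whole muscles. Beside the counts that follow, 20.9% of all genes tested were called higher and 20.1% lower. Summed normalized counts of the macrophage markers were 481 to 746 in WT and 3565 to 8548 in *mdx5cv* muscles, and 6 of the 6 markers were called higher. Markers of regenerating fibers went from 138 to 156 up to 2246 to 8706, with 6 of 6 called higher, and fibroblast markers from 5288 to 8008 up to 17550 to 31480, with 4 of 6 called higher. The regenerating fiber markers *Mymk*, *Mymx* and *Chrng* and the macrophage marker *Itgam* had WT means of 0.265, 0, 0.265 and 3.88. They passed the filter only through the *mdx5cv* muscles. Slow fiber markers were called higher for 5 of 8 and lower for 1 (1045 to 1098 in WT and 1595 to 3138 in *mdx5cv* muscles). Satellite cell markers were called higher for 2 of the 4 tested (187 to 211 and 298 to 501). None of the 5 T lymphocyte markers reached the filter, and their sum was 4.39 to 5.30 in WT and 22.2 to 45.5 in *mdx5cv* muscles. Endothelial markers were called lower for 5 of 5 (3575 to 3970 and 1905 to 2442), Schwann cell markers for 3 of 4 (266 to 542 and 122 to 220) and adipocyte markers for 3 of 4 (58.4 to 464 and 14.8 to 51.9). *Sox10*, *Cidec* and *Lep* of these lists had *mdx5cv* means of 7.37, 7.39 and 3.67 and passed the filter only through WT muscles. Smooth muscle and pericyte markers were called higher for 2 and lower for 2 of 4 (5599 to 6967 and 3941 to 4602), and fast fiber markers were called lower for 3 of 8 (895000 to 1123000 and 695000 to 1065000). No listed marker was at 0 in all 8 muscles, and the fast fiber markers, which define the TA muscle, had the highest sums of all the lists. The part of these cell types in the values below was not tested, and in whole muscle fewer cells of a type cannot be told apart from less RNA per cell.

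Levels were compared between genes per length, as TPM, the recovered reads over the annotated exon length scaled to the same sum in each muscle. In WT muscle *Dusp13* had the highest TPM of the 9, at 76.0 ± 9.79 (SD, n = 4), which ranked 554th of all genes. *Dusp3* followed at 47.0 ± 5.75, and these levels were separated by more than their SDs. *Dusp26* at 35.0 ± 2.18, *Dusp10* at 33.2 ± 7.09 and *Dusp1* at 24.047 ± 6.24 came next, and no neighbors in that order differed beyond their SDs. The same held for *Dusp8* at 12.4 ± 3.13 TPM and *Dusp6* at 9.33 ± 1.56 TPM. *Dusp4* at 1.08 ± 0.331 TPM and *Dusp5* at 0.395 ± 0.257 TPM were the least abundant. The 3 atypical phosphatases had the highest means in WT muscle, *Dusp26* within the spread of *Dusp10*, and the inducible *Dusp4* and *Dusp5* had the lowest.

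In *mdx5cv* muscle the order per length was headed by *Dusp13* at 70.7 ± 10.3 TPM and *Dusp3* at 68.3 ± 8.80 TPM, which no longer differed beyond their SDs. *Dusp26* stood at 3.15 ± 1.77 TPM, within the spread of *Dusp4* at 3.51 ± 0.675 TPM and *Dusp5* at 2.29 ± 1.11 TPM. TPM is a share of all transcripts in a muscle and so moves with the most abundant transcripts, and differences between the groups are therefore given below in normalized counts.

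**Figure D2:**
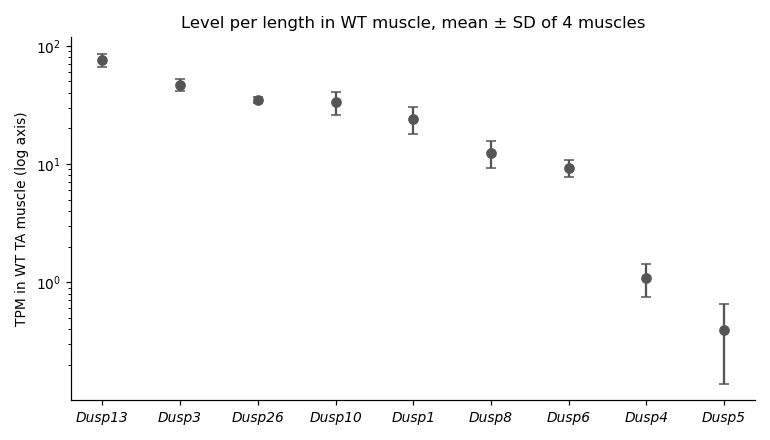
Level per length of the 9 phosphatases in WT TA muscle, in TPM on a log axis. Points are means of 4 muscles and bars are SDs. Levels run from 76.0 TPM for Dusp13 to 0.395 TPM for Dusp5, with Dusp26, Dusp10 and Dusp1 close together.

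*Dusp1*, *Dusp4* and *Dusp5* encode nuclear MAP kinase phosphatases that are induced by growth factors and stress. *Dusp1*, at chr17:26505590-26562128 on the minus strand, encodes an early response phosphatase for p38, JNK and ERK. WT muscles had normalized counts of 358, 618, 611 and 447, and *mdx5cv* muscles had 415, 456, 484 and 310.05. The groups overlapped, and 1 *mdx5cv* muscle lay below all WT muscles. The means were 508 ± 127.9 and 416 ± 76.1 (SD, n = 4), and the WT spread was wider than their difference. The log2 fold change was -0.27 (SE 0.18, 95% confidence interval -0.67 to 0.12), and it was 0.09 when the muscles were scaled to equal totals.

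*Dusp4*, at chr8:34807297-34819894 on the plus strand, encodes a nuclear phosphatase of ERK, JNK and p38. Its normalized counts were 19.5, 12.1, 22.1 and 21.2 in WT muscles and 48.2, 50.9, 34.2 and 44.7 in *mdx5cv* muscles. Every *mdx5cv* muscle was above every WT muscle, although the counts were low in both groups. The means were 18.7 ± 4.56 and 44.5 ± 7.32 (SD, n = 4), which is 2.38-fold higher in *mdx5cv* muscle. The log2 fold change was 1.23 (SE 0.24, 95% confidence interval 0.71 to 1.75), and it ranged from 1.04 to 1.34 with each muscle left out in turn.

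*Dusp5*, at chr19:53529109-53542431 on the plus strand, encodes a nuclear phosphatase that is selective for ERK. Its normalized counts were 3.44, 4.39, 5.53 and 10.6 in WT muscles and 18.5, 39.6, 12.6 and 34.4 in *mdx5cv* muscles. The groups did not overlap, but the highest WT muscle and the lowest *mdx5cv* muscle were close. The WT values rested on 3 to 10 reads per library and the *mdx5cv* values on 14 to 43 reads. The means were 5.99 ± 3.19 and 26.3 ± 12.8 (SD, n = 4), 4.39-fold higher in *mdx5cv* muscle, and the log2 fold change was 1.93 (SE 0.42, 95% confidence interval 1.02 to 2.84). With a pseudocount of 10 in place of 1 it was 1.13, since the counts are near that pseudocount. An antisense gene shares 547 exonic bases with *Dusp5*, and it had mean normalized counts of 0 in WT and 0.431 in *mdx5cv* muscles.

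Among WT muscles the spread was widest for the low counts of *Dusp5*. The coefficient of variation of *Dusp5* was 53.2% in WT and 48.6% in *mdx5cv* muscles, and that of *Dusp1*, with higher counts, was 25.2% and 18.3%. By contrast *Dusp3* varied by 6.74% and 4.398%.

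*Dusp6*, at chr10:99263231-99267489 on the plus strand, encodes the cytoplasmic phosphatase of ERK and is widely used as a readout of ERK signaling. Its normalized counts were 164, 229, 172 and 182 in WT muscles and 165, 211, 170.2 and 214 in *mdx5cv* muscles. Both groups covered almost the same range. The log2 fold change was 0.03 (SE 0.14), with a 95% confidence interval of -0.28 to 0.33. It was 0.38 with equal totals.

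*Dusp8* and *Dusp10* encode phosphatases that prefer the stress kinases JNK and p38 to ERK. *Dusp8*, at chr7:142079490-142095843 on the minus strand, is best known in brain, heart and skeletal muscle. The normalized counts of *Dusp8* were 349.5, 362, 356 and 463 in WT muscles and 164, 137, 202 and 141 in *mdx5cv* muscles. Every *mdx5cv* muscle was below every WT muscle, and WT replicate 4 was the highest of the 8. The means were 383 ± 53.8 and 161 ± 29.8 (SD, n = 4), 2.38-fold lower in *mdx5cv* muscle, with a log2 fold change of -1.25 (SE 0.14, 95% confidence interval -1.57 to -0.94). It was -0.90 with equal totals.

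*Dusp10*, at chr1:184013302-184075636 on the plus strand, had normalized counts of 736, 510.1, 615 and 711 in WT muscles and 504, 414, 466 and 419 in *mdx5cv* muscles. The groups did not overlap, with WT replicate 2 and *mdx5cv* replicate 1 almost at the same level. The means were 643 ± 103 and 451 ± 42.6 (SD, n = 4), 1.43-fold lower in *mdx5cv* muscle, and the log2 fold change was -0.50 (SE 0.13, 95% confidence interval -0.78 to -0.23). With equal totals it was -0.14.

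The remaining 3 genes encode atypical phosphatases. *Dusp3*, at chr11:101971143-101987013 on the minus strand, encodes a small phosphatase of ERK and JNK without a docking domain. WT muscles had normalized counts of 1504, 1278, 1437 and 1404 and *mdx5cv* muscles had 1562, 1423.5, 1493 and 1429. The groups overlapped, and 1 *mdx5cv* muscle lay above all WT muscles. The means were 1406 ± 94.7 and 1477 ± 65.0 (SD, n = 4), the log2 fold change was 0.07 (SE 0.09, 95% confidence interval -0.13 to 0.27), and with equal totals it was 0.43.

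*Dusp13*, at chr14:21733394-21751181 on the minus strand, produces a form found in skeletal muscle and another found in testis. Its normalized counts were 1238, 1404, 1338 and 1341 in WT muscles and 1035, 888, 936 and 746 in *mdx5cv* muscles. All *mdx5cv* muscles were below all WT muscles, and *mdx5cv* replicate 4 was the lowest. The means were 1330 ± 68.7 and 901 ± 120.3 (SD, n = 4), 1.48-fold lower in *mdx5cv* muscle, and the log2 fold change was -0.57 (SE 0.11, 95% confidence interval -0.81 to -0.33). With equal totals it was -0.21. The counts are per gene, so the forms cannot be told apart.

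*Dusp26*, at chr8:31089471-31097047 on the plus strand, encodes an atypical phosphatase known mainly from brain, neuroendocrine tissue and skeletal muscle, with reported activity on p38. Its normalized counts were 567, 549.5, 546 and 416 in WT muscles and 19.5, 67.0, 40.5 and 15.2 in *mdx5cv* muscles. The lowest WT muscle was several fold above the highest *mdx5cv* muscle, and the recovered reads were 393 to 501 per WT library and 19 to 71 per *mdx5cv* library. The means were 519.8 ± 69.6 and 35.5 ± 23.7 (SD, n = 4), 14.6-fold lower in *mdx5cv* muscle. The log2 fold change was -4.06 (SE 0.35, 95% confidence interval -4.80 to -3.31), and it ranged from -4.43 to -3.74 with each muscle left out in turn and was -3.71 with equal totals.

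Within the *mdx5cv* group the level of *Dusp26* was uneven, with a coefficient of variation of 66.7% against 13.4% in WT muscles. *mdx5cv* replicates 4 and 1 had its lowest normalized counts, 15.2 and 19.5, and also the highest sums of regenerating fiber markers, 8706 and 5047. Replicates 3 and 2 had 40.5 and 67.0 of *Dusp26* and sums of 3317 and 2246. The order of *Dusp26* in these 4 muscles was the reverse of the order of the marker sum, which is a description of 4 points. Macrophage marker sums were 8548 and 4974 in replicates 4 and 1, and 3565 and 4033 in replicates 3 and 2. Fast fiber marker sums were 694990 and 1007100 in replicates 4 and 1, and 1047300 and 1065000 in replicates 3 and 2. Their order was the same as that of *Dusp26*, so the order does not single out regenerating fibers. No other marker list followed that order or its reverse. The part of these cells in the level of *Dusp26* was not tested.

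The scaling bears on the smaller differences. Scaling to equal totals shifted the median over all genes tested by 0.35 on the log2 scale. Of the genes then called, 86.9% were higher in *mdx5cv* muscle against 51.0% with the deposited size factors and 49.4% with TMM factors. This scaling divides all genes of a muscle by the same number. Taking the 0.35 shift off the equal totals values of the 9 genes therefore returns those with the size factors. The pseudocount makes a small difference at low counts, as for *Dusp5* (1.896 against 1.93). The return is fixed by the arithmetic and cannot decide which scaling is right.

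**Figure D3:**
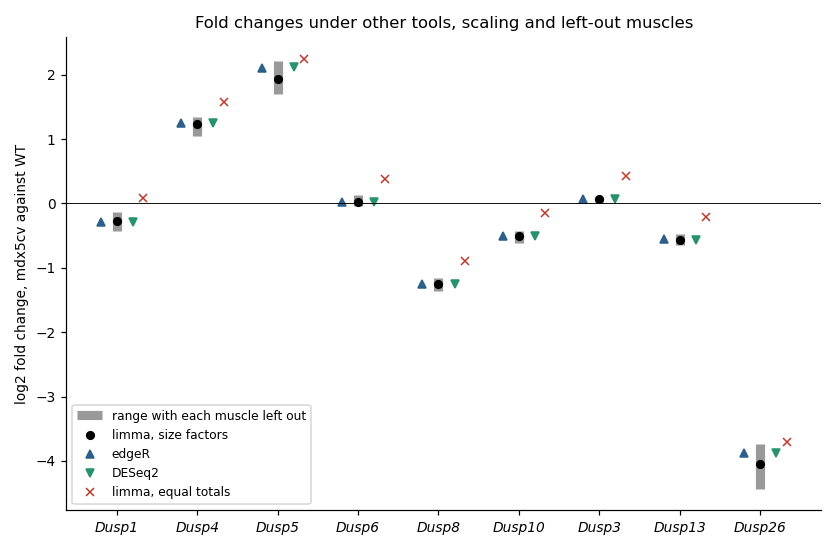
Log2 fold changes (mdx5cv against WT, vertical axis) of the 9 phosphatases under other tools and scaling. Black points are the limma values with the deposited size factors, gray bars the range with each muscle left out in turn, triangles edgeR and DESeq2 on recovered reads, and crosses limma with equal totals. The crosses lie above the black points by about the 0.35 shift of all genes, which turns Dusp1 from -0.27 to 0.09, and Dusp26 stays at -3.71 or lower.

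Genes whose pattern over the 8 muscles was closest to that of *Dusp5* and of *Dusp26* were sought among 7641 genes with normalized counts averaging 100 or more, by the root mean square difference of log2 deviations from the WT mean. Nearest to *Dusp5* were *Tap1*, a peptide transporter of antigen presentation, at 0.334, then *Sbno2* at 0.432 and *Pltp*, a phospholipid transfer protein, at 0.462. *Tap1* went from a normalized count of 45.2 ± 11.1 in WT to 160.8 ± 49.0 in *mdx5cv* muscles (SD, n = 4). Nearest to *Dusp26* were *Rhou*, a small GTPase, at 0.768, *Actr3b*, an actin-related protein, at 0.827, and *Cyp4f39*, a cytochrome P450, at 0.869. Their log2 fold changes were -3.08 (SE 0.27), -3.17 (SE 0.30) and -2.94 (SE 0.27), all smaller in size than that of *Dusp26*. Their *mdx5cv* means were 28.8, 19.7 and 58.9, so they averaged 100 only through WT muscles, and *Tap1* only through *mdx5cv* muscles. Genes that averaged under 100 were not candidates, and some of them fell by more than *Dusp26*. The lowest log2 fold change of all genes tested was -8.38. The distances to *Dusp26* were larger than those to *Dusp5*. All of these genes share the 8 libraries, so likeness here is a description.

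The other 18 genes of the family were listed by name. Of the 13 that passed the filter, 3 rose and 5 fell in *mdx5cv* muscle, beside 40.9% of all genes tested that were called in either direction, and their median log2 fold change was -0.25. Under equal totals this median was 0.11 and that of all genes 0.36. *Dusp18*, an atypical phosphatase, had the largest change, from normalized counts of 36.7, 21.9, 34.3 and 28.6 in WT muscles to 73.2, 89.6, 83.7 and 96.7 in *mdx5cv* muscles. It rose by 1.49 on the log2 scale (SE 0.19, limma adjusted p = 6.9e-05), with no overlap of the groups. *Dusp14*, an atypical phosphatase known from T cell signaling, had 76.8, 104.2, 63.0 and 73.1 in WT muscles and 192, 148, 175 and 196 in *mdx5cv* muscles. It rose by 1.17 (SE 0.16, limma adjusted p = 0.000128), again in all 4 muscles. *Dusp11*, which acts on the 5′ end of RNA rather than on proteins, rose by 0.31 (SE 0.09, limma adjusted p = 0.0173), from 454 ± 23.8 to 564 ± 28.0.

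The 5 family genes that fell did so by less than 1 on the log2 scale. *Styx*, a pseudophosphatase that binds ERK, fell by 0.60 (SE 0.12, limma adjusted p = 0.00151), from 358 ± 40.3 to 236 ± 24.5 (SD, n = 4). *Dusp22*, an atypical phosphatase of JNK signaling, fell by 0.44 (SE 0.11, limma adjusted p = 0.00543), *Dusp28* by 0.61 (SE 0.16, limma adjusted p = 0.00891) and *Dusp19* by 0.72 (SE 0.20, limma adjusted p = 0.0107). *Dupd1*, an atypical phosphatase of skeletal muscle, fell by 0.60 (SE 0.21, limma adjusted p = 0.0345), but its groups overlapped, and the call was lost without WT replicate 3 (adjusted p = 0.0731) and without WT replicate 4 or *mdx5cv* replicate 4 (0.1001 and 0.1002, limma). With equal totals all 5 kept their sign and none was called. *Styx* shares 3878 exonic bases with *Gnpnat1* on the opposite strand and *Dusp19* 131 with *Nup35* on the same strand, and the strand setting of the counting is unknown, so their counts are less certain.

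A further 5 family genes passed the filter and were not called. These were *Dusp7*, a cytoplasmic phosphatase of ERK (-0.25, SE 0.15), *Dusp12* (-0.27, SE 0.18), *Dusp16*, a phosphatase of JNK (0.03, SE 0.12), *Dusp23* (-0.10, SE 0.14) and the muscle pseudophosphatase *Dusp27* (0.03, SE 0.23). Another 5 were below the filter. *Dusp9*, another cytoplasmic ERK phosphatase, had no read in any WT muscle and 8, 3, 1 and 15 reads in the *mdx5cv* muscles, and without the filter it was called higher (limma adjusted p = 0.00227). *Dusp2*, an inducible nuclear phosphatase of immune cells, had 3, 6, 3 and 5 reads in WT and 11, 11, 10 and 13 reads in *mdx5cv* muscles. *Dusp15* and *Styxl1* overlapped between the groups at low counts, and *Dusp21* had no read in any muscle.

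**Figure D4:**
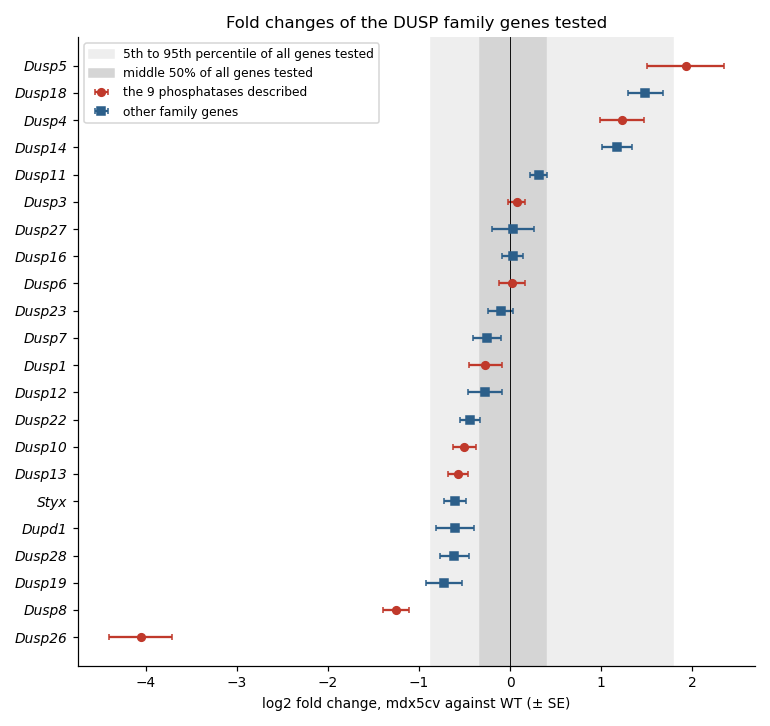
Log2 fold changes (mdx5cv against WT, horizontal axis) of the 22 family genes that passed the filter. Red circles are the 9 phosphatases described and blue squares the other family genes, bars are SEs, and gray bands show the middle 50% and the 5th to 95th percentile of all genes tested. Dusp26 at -4.06 lies far below the rest, Dusp5, Dusp18, Dusp4 and Dusp14 lie above 1, and with equal totals every value is higher by about 0.35.

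The kinases on which these phosphatases act were examined as a list. Of 14 MAP kinase genes, 10 were tested, 2 rose and 2 fell (median log2 fold change -0.06). That is 40.0% called, near the 40.9% of all genes tested. *Mapk7*, which encodes ERK5, rose from 28.0 ± 11.9 to 65.2 ± 14.7 (log2 fold change 1.29, SE 0.33, limma adjusted p = 0.00698). *Mapk3*, which encodes ERK1, rose from 88.0 ± 21.3 to 147 ± 30.7 (0.74, SE 0.19, limma adjusted p = 0.00722). Among the stress kinases *Mapk9*, which encodes JNK2, fell by 0.58 (SE 0.10, limma adjusted p = 0.00058) from 707 ± 67.8 to 473 ± 18.2, and *Mapk12*, which encodes the p38 gamma of muscle, fell by 0.41 (SE 0.10, limma adjusted p = 0.00517) from 1077 ± 89.1 to 809.6 ± 51.7. With equal totals 3 kinase genes were called higher and 0 lower. *Mapk10* was below the filter, at 15.6 ± 4.16 in WT and 4.11 ± 2.34 in *mdx5cv* muscles, with no overlap of the groups. It was called lower by limma without the filter (-1.835, adjusted p = 0.00863) and by DESeq2 (-1.95, adjusted p = 0.00305).

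All 7 genes of the MAP kinase kinases were tested, and 3 fell while 0 rose, which is 42.9% called. Of all genes tested, 40.9% were called in either direction and 20.1% were called lower. *Map2k6*, an activator of p38, fell by 0.59 (SE 0.15, limma adjusted p = 0.00778), *Map2k4*, an activator of JNK and p38, by 0.55 (SE 0.11, limma adjusted p = 0.00125) and *Map2k2*, an activator of ERK, by 0.48 (SE 0.10, limma adjusted p = 0.00161). Beside the count of 0 higher from limma, edgeR and DESeq2 also gave 0, and 1 gene was higher at an unadjusted p under 0.05. With equal totals the counts were 1 higher and 0 lower.

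A list of 14 genes that ERK signaling is known to induce or that feed back on it gave 4 higher and 0 lower, with a median of 0.16. That is 28.6% called, all of them higher. Of all genes tested, 20.9% were called higher and 40.9% were called in either direction. *Ccnd1*, the gene of cyclin D1, rose from 37.3 ± 11.2 to 161 ± 36.2 (2.10, SE 0.22, limma adjusted p = 1.4e-05), *Phlda1* from 15.4 ± 3.45 to 33.1 ± 0.995 (1.08, SE 0.23, limma adjusted p = 0.00243), and *Spred1*, an inhibitor of Ras signaling, from 175 ± 29.8 to 317 ± 78.2 (0.84, SE 0.17, limma adjusted p = 0.00193). *Spred2* passed narrowly (0.45, SE 0.16, limma adjusted p = 0.0357). It lost the call with no filter on low values (adjusted p = 0.0544), with the replicate number as a block (0.0537), without WT replicates 2 or 3 (adjusted p = 0.0683 and 0.0977) and without *mdx5cv* replicates 2, 3 or 4 (0.0690, 0.107 and 0.0809, limma). The Sprouty genes, which like *Dusp6* are feedback inhibitors of the ERK pathway, were not called. *Spry1* was -0.05 (SE 0.13), *Spry2* 0.41 (SE 0.19) and *Spry4* 0.08 (SE 0.15). For 0 lower, edgeR, DESeq2 and an unadjusted p under 0.05 gave 0 as well.

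Immediate early genes, which are transcribed within minutes of a stimulus as *Dusp1* and *Dusp5* are, were called higher for 9 of the 12 tested and lower for 0, where 20.9% and 20.1% of all genes tested were called, with a median of 1.36. Of the 9, *Egr2* and *Egr3* had WT means under 10 and passed the filter only through the *mdx5cv* muscles. *Egr3* rose (2.70, SE 0.45, limma adjusted p = 0.000449), from 3.07 ± 1.99 to 25.1 ± 12.9. *Junb* rose by 2.08 (SE 0.16, limma adjusted p = 1.8e-06), *Egr2* by 1.92 (SE 0.56, limma adjusted p = 0.0146) with overlapping groups, and *Egr1* by 1.83 (SE 0.19, limma adjusted p = 1.2e-05). The same list was called lower for 0 genes by edgeR, by DESeq2 and at an unadjusted p under 0.05. Only 1 of 3 tyrosine phosphatases that act on MAP kinases was tested. *Ptpn7*, which is made by blood cells, had 2.29, 2.19, 3.32 and 6.36 in WT muscles and 37.98, 17.9, 30.6 and 70.3 in *mdx5cv* muscles, and rose by 3.07 (SE 0.43, limma adjusted p = 0.000121). It too passed the filter only through the *mdx5cv* muscles.

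**Figure D5:**
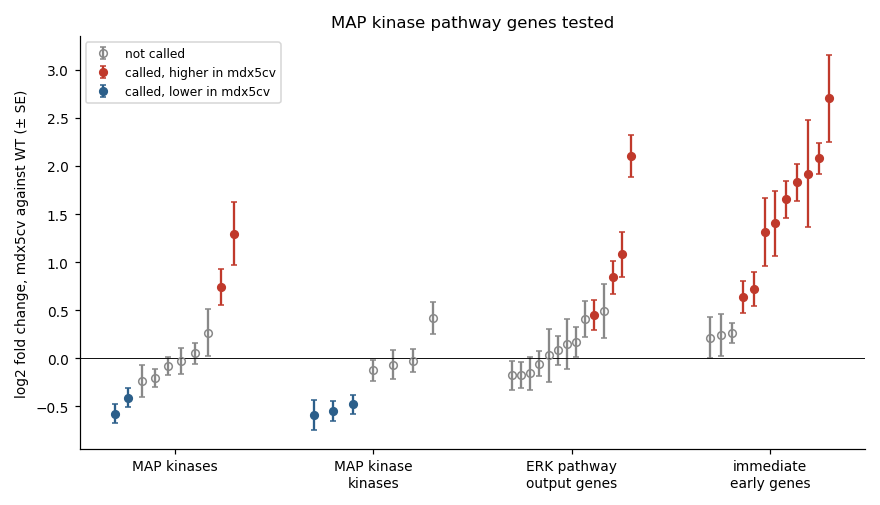
Log2 fold changes (mdx5cv against WT, vertical axis) of the MAP kinases, MAP kinase kinases, ERK pathway output genes and immediate early genes that were tested. Each point is a gene with its SE, filled red where called higher, filled blue where called lower and open where not called. Immediate early genes are called higher for 9 of 12, against 20.9% of all genes tested. The MAP kinase kinases are called lower for 3 of 7, against 20.1% of all genes tested, and for 0 of them with equal totals.

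Promoter windows from RefSeq on GRCm38.p6, 250 bases before to 50 after a start, were matched by symbol for 7 of the 9 genes (10 windows, 4 of them for *Dusp13*). Both strands were searched for motifs of factors that act downstream of MAP kinases or in muscle. The cyclic AMP response element TGACGTCA was in the windows of *Dusp1* and *Dusp8*, and in 1.79% of all 32851 windows. The CArG box bound by SRF was in the window of *Dusp5*, as 2 adjoining boxes, and in 1.63% of all windows. An AP-1 site (TGANTCA) was in 1 window of *Dusp13* and in 7.81% of all windows. The matches of these motifs are shown with the motif in capitals. Distances are from the RefSeq starts. The *Dusp1*, *Dusp8* and *Dusp13* matches lie inside the wider GENCODE gene bounds given above.
Dusp1 element, 143 bases before the start (chr17:26508599-26508624, minus strand): tagggcgggTGACGTCAccgcccggt
Dusp8 element, 107 bases before the start (chr7:142095375-142095400, minus strand): ccgctccgcTGACGTCAcctgccccc
Dusp8 element, 63 bases before the start (chr7:142095331-142095356, minus strand): ggctgcaggTGACGTCAggggctttt
Dusp5 boxes, 82 bases before the start (chr19:53529058-53529087, plus strand): aatacCCATATTTGGCCTTATATGGgcact
Dusp13 site, 72 bases before the start (chr14:21748679-21748703, minus strand): gggacttgcTGAGTCActttgtccc

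The shorter element TGACG, which the full element contains, was in the windows of *Dusp1*, *Dusp5* and *Dusp8* and in 20.8% of all windows. An Sp1 box (GGGCGG) was in 5 of the 10 windows, against 35.7% of all windows, and an E-box (CANNTG) in 7, against 72.3%. No MEF2 site was found in the 10 windows, and 3.19% of all windows held one. *Dusp8*, with its 2 response elements, was lower in *mdx5cv* muscle and *Dusp1*, with 1, overlapped between the groups. A match is a run of letters and not evidence of binding.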

How the data were processed

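RNA-seq of 4 WT and 4 *mdx5cv* TA muscles was analysed, grouped by the genotype in the labels. The deposited values are a signal, in which the authors divided the reads of each gene by the size factor of the library. The submitters' processing notes name FastQC, Trim Galore 0.6.4, STAR 2.6.0c, SAMtools 1.9, featureCounts, MultiQC 1.6, DESeq2 1.26.0, R 3.6.2 and mm10. Libraries were stranded total RNA with ribosomal RNA depleted, and the strand setting of the counting is not given in the sources used here. Whole reads were recovered for 100% of the values (tolerance 0.001).

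Groups were compared with limma 3.58.1 (lmFit, eBayes with trend, two-sided, Benjamini-Hochberg) in R 4.3.3 on log2(normalized count + 1) for genes with a mean of at least 10. The alternatives were pseudocounts of 0.1 and 10, no filter, TMM factors, equal totals, the replicate number as a block, each muscle left out, a required log2 fold change of 1 or more in size, and edgeR 4.0.16 (quasi-likelihood) and DESeq2 1.42.0 on the recovered reads. On simulated data with 200 genes changed by 2 on the log2 scale, limma and edgeR recovered 100% over 13532 genes and DESeq2 100% over 13677. Among unchanged genes, limma and edgeR each called 12 and DESeq2 called 8. The changed genes had higher counts and the same dispersion as all others, so low counts and smaller changes were not covered. Replicates differed by more than sampling noise (chi-square per degree of freedom 8.59 to 38.4), so none was counted as a copy. The muscles were compared without pairing by replicate number, and whether the numbers pair them is not known. The phosphatases and all lists were chosen with earlier results of these data known. Genes named in the text are the 9 phosphatases, *Dmd*, the other family genes, up to 4 called genes per direction of each other list by size of change, and the 3 genes nearest to *Dusp5* and *Dusp26*. Cell type markers that passed the filter through a single group are named as well. The Sprouty genes and *Mapk10* were named after their values were seen. Coordinates are from GENCODE M21 on GRCm38, where 55141 of the 55401 gene IDs were found with versions ignored. Promoters are from RefSeq.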

Additional observations from a re-analysis of the deposited data

Results flagged for a closer look

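In 5 of 98 sets of 4 muscles, 1 muscle stood apart from the other 3 by Dixon's test, and chance gives about 4.9. The values are on the log2 scale. For *Dusp8*, WT replicate 4 was highest at 8.86, with the others at 8.45 to 8.50. The same muscle was lowest for *Dusp26* at 8.71, with the others at 9.10 to 9.15. *mdx5cv* replicate 4 was highest for *Ccnd1* at 7.76 (others 7.14 to 7.20), lowest for the summed fast fiber markers at 19.41 (others 19.94 to 20.02) and highest for the summed satellite cell markers at 8.97 (others 8.22 to 8.28).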

How the results depend on the processing

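Of 144 recomputed fold changes of the 9 phosphatases, 136 moved by less than the spread between replicates. Of the other 8, 7 came from equal totals, and the eighth was *Dusp5* with a pseudocount of 10 (1.13). With equal totals, the counts were 5444 higher and 820 lower for all genes, 2 lower for the phosphatases (*Dusp10* and *Dusp13* lost, *Dusp3* gained as higher), 0 lower for the other family genes and for the MAP kinases, 1 higher and 0 lower for the MAP kinase kinases, and 7 higher for the ERK output genes. The shift of 0.35 in all genes bears on these counts. With a log2 fold change of 1 or more in size required, the counts were 1414 and 447 for all genes, 2 lower for the phosphatases, 0 lower for the other family genes, 1 higher and 0 lower for the MAP kinases, 0 lower for the MAP kinase kinases and 2 higher for the ERK output genes. With each muscle left out, 2426 to 2853 genes were called higher and 2248 to 2625 lower. The replicate block gave 2880 and 2736, and 3 higher for the ERK output genes, where *Spred2* was lost (limma adjusted p = 0.0537), and changed no other count of the lists. Same-numbered muscles correlated at 0.031 to 0.146, and not every muscle correlated best with its own number. Correlations this low cannot decide whether the numbers pair the muscles. At this depth *Dusp5*, *Dusp2*, *Dusp9* and *Mapk10* rest on few reads.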
